A study of Mus musculus with 2 samples.

Results

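The Pou5f1 enhancer contacts in distal intergenic DNA are interacting sites of a sonication-based 4C-Seq experiment whose middle lies outside every annotated gene of any type and more than 5000 bp from every annotated transcript start. Of the 1009 listed sites in the reproducible interacting regions, 328 met this rule (32.5%, Wilson 95% confidence interval from 29.7% to 35.5%). Another 330 sites lay within 5 kb of a transcript start, and 351 lay inside a gene but farther from any start. The rule used position alone, with gene models from the GENCODE annotation of the mm9 genome, and no property of the contacts themselves.

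The sites came from E14 cells, a mouse embryonic stem cell line kept undifferentiated with LIF, with no genetic change or drug treatment given in the labels. An upstream enhancer element of Pou5f1, the gene of the transcription factor Oct4, served as the bait in 2 replicate libraries, BR1 and BR2, made from cells cross-linked with 1% formaldehyde, with chromatin sonicated to about 500 bp and PCR products to about 200 bp. The list gives a chromosome, a start and an end for each site, pooled over both replicates. It holds no read counts, so the depth behind a site is unknown, the spread between BR1 and BR2 could not be measured, and the identity of the cells cannot be checked against marker genes.

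In 4C, DNA that lies close to a chosen bait in the cross-linked nucleus is ligated to it, amplified with bait primers and sequenced, so that each site marks a place that was joined to the bait. DNA between genes holds enhancers and insulators, which can act on genes far away, as well as long stretches with few known elements and many repeats. In embryonic stem cells Oct4 binds the octamer motif, often together with Sox2, at many enhancers outside promoters, and CTCF and cohesin fold the chromosome into loops.

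The sites are printed here as the mm9 sequence over their listed positions, since the list holds no sequences of the tags themselves. The following 12 sites are the members of the 2 gene-free intervals with the most members, which are described further on, printed from the forward strand of mm9, 5′ to 3′, in lower case throughout.
chr14:71438321-71438340: caaatgtgacagttcctcac
chr14:71461153-71461172: attttcttaaggctttgtaa
chr14:71646580-71646599: gtctatgtataagtgtgtgt
chr14:71707439-71707458: tggctgtccagcttggtgaa
chr14:72291883-72291903: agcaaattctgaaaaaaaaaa
chr14:72306525-72306544: ggtcagagtctggatggaag
chr9:60910702-60910721: ttgggcagcagtcttgtgtg
chr9:60942382-60942401: ttggttgcctctccacctca
chr9:60966029-60966048: taagctctacaggttcatgc
chr9:61085780-61085799: tccacactctaaaagtggtg
chr9:61166601-61166621: tcccctcctcccaacccctcc
chr9:61177802-61177822: tggtgaaaagtccccagatgg

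On the chromosome of the bait, the following 3 sites were the distal intergenic members nearest to Pou5f1 and are shown as the only members within 1 Mb of it.
chr17:35857310-35857329: gactgccatccacccctccc
chr17:35864649-35864668: aagaggcatccagagggggc
chr17:35918431-35918450: aggacatgggagatgaaacc

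The octamer is the motif that Oct4 recognises, and 4 members had a copy of it within the surrounding 300 bp. The windows of 2 of them are shown with the octamer in capitals, which on the forward strand reads ATTTGCAT, the reverse complement of ATGCAAAT, in both.
chr7:145731301-145731600: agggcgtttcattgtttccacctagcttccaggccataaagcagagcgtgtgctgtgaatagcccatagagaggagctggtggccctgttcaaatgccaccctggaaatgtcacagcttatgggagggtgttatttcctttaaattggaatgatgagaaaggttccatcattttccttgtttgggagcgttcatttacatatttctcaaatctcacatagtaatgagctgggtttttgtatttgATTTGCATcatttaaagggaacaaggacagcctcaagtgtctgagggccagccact
chrX:99433731-99434030: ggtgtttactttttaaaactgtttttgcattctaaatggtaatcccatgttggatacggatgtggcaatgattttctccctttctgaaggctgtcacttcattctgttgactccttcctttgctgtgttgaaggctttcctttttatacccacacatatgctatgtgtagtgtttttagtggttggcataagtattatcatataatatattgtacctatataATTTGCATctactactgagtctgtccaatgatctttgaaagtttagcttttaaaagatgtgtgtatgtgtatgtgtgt

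The share of sites in distal intergenic DNA was a little below its share of the sequence. The interacting regions, formed by joining neighbouring listed sites at most 1 Mb apart, or 200 kb apart on chromosome 17, held 144.8 Mb of known bases. Of these bases 35.3% met the rule, against 32.5% of the sites. The share of bases lay just inside the Wilson interval of the share of sites, but with a limit of 2000 bp, where it was 39.7%, it lay outside an interval from 33.4% to 39.3%. With limits of 10000 and 20000 bp it again lay inside the interval. With the limit of 5000 bp, the same census over chromosomes 1 to 19 and X gave 52.8%, so the regions themselves were poorer in distal intergenic DNA than the chromosomes. Within the regions the density was 6.41 members per Mb (exact Poisson 95% interval from 5.74 to 7.15), 6.56 per Mb in gene bodies (from 5.89 to 7.29) and 8.21 per Mb within 5 kb of a start (from 7.35 to 9.15). The interval of the members overlapped that of gene bodies and ended below that of the sites near starts. The shares of bases count all known bases, also those where a 20-bp tag is not unique. At 1-kb steps through the regions, 76.8% of distal intergenic positions had a unique 20-bp sequence, against 83.8% in gene bodies and 83.1% near starts. Over positions with a unique 20-bp sequence the density of members, 7.66 per Mb, was still below the 9.38 near starts. The intervals, 6.82 to 8.58 and 8.37 to 10.5, then overlapped, which does not show equal densities, and the difference was not tested. These intervals cover counting error only, although sites of the same region may share their origin. The regions are bounded by listed sites, which enter both sides of each comparison.

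Members were found in 44 of the 47 interacting regions. They were present in all 37 inter-chromosomal regions, with a median of 7 per region, and in 7 of the 10 intra-chromosomal regions, with a median of 1. The regions with the most members lay on chromosome 4 (chr4:132159092-141618278) and chromosome 11 (chr11:112655168-121664255), with 17 members each, and on chromosome 6 (chr6:30179375-36805087), with 15. In the first, 27.0% of 63 sites were members and 26.5% of the bases met the rule. On chromosome 11 the shares were 23.9% of 71 sites and 23.7% of bases, and on chromosome 6 they were 39.5% of 38 sites and 34.9% of bases. The regions without a member were all on chromosome 17, at chr17:25302884-25558732 with 6 sites, chr17:28551620-28860988 with 4 and chr17:71087792-71554493 with 9.

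**Figure D1:**
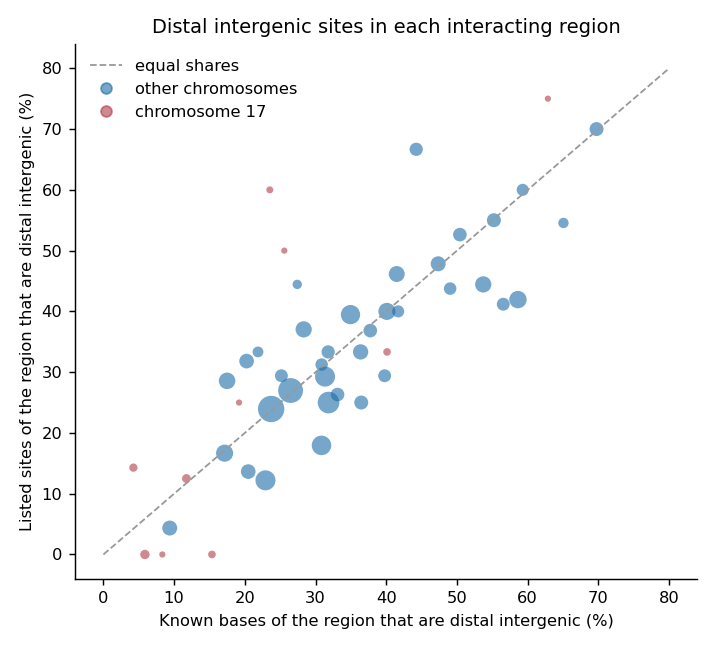
Share of the listed sites of each of the 47 interacting regions that are distal intergenic, against the share of the region's known bases that are distal intergenic, both in percent. Each point is a region, its area is in proportion to the number of listed sites, and the dashed line marks equal shares. The points scatter on both sides of the line, some of them far from it, with 23 of 47 regions above it.

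Among the 36 regions with at least 10 sites, the share of members ran from 4.35% in chr10:79073713-80963683, where 9.38% of bases met the rule, to 70.0% in chr18:80848858-84607476, where 69.7% did. The region chr9:59256984-61720560 stood above its sequence, with 12 of 18 sites (66.7%) in the 44.2% of bases that met the rule. On the other side, chr5:120960722-127194115 had 7 of 39 sites (17.95%) in 30.8% of its bases. These 4 regions were named after their values had been seen. In all, 23 of 47 regions had a larger share of members among their sites than of distal intergenic bases. By chromosome, chromosome 9 had the most members, 45 of 105 sites, followed by chromosome 5 with 28 of 105 and chromosome 18 with 25 of 43. Chromosome 10, with 6 of 40 sites (15.0%, Wilson interval from 7.06% to 29.1%), and chromosome 18, with 58.1% (from 43.3% to 71.6%), had the lowest and the highest share, and their regions had 27.3% and 59.0% of bases in distal intergenic DNA.

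The members lay at widely differing distances from transcript starts. Their distance to the nearest transcript start ran from 5.07 to 390.7 kb, with a median of 29.1 kb (95% interval of the median from 23.4 to 35.4 kb) and quartiles at 13.4 and 67.4 kb. The 51427 positions of a 1-kb grid through the regions that met the same rule had a median of 30.6 kb and quartiles at 13.7 and 78.2 kb. Over 100 kb from any start lay 62 members (18.9%) and 19.8% of the grid. The density of members was 6.23 per Mb (exact Poisson 95% interval from 4.64 to 8.20) at 5 to 10 kb from a start, 7.11 (from 5.60 to 8.90) at 10 to 20 kb and 7.08 (from 5.75 to 8.61) at 20 to 50 kb. Farther out it was 4.76 (from 3.40 to 6.48) at 50 to 100 kb, 7.16 (from 5.26 to 9.52) at 100 to 200 kb and 4.16 (from 2.33 to 6.86) beyond 200 kb. Every interval overlapped each of the others, but such overlap does not show equal densities, and a trend with distance was not tested. Within regions of at least 3 members, the members' median distance was below that of the grid in 18 of 38.

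**Figure D2:**
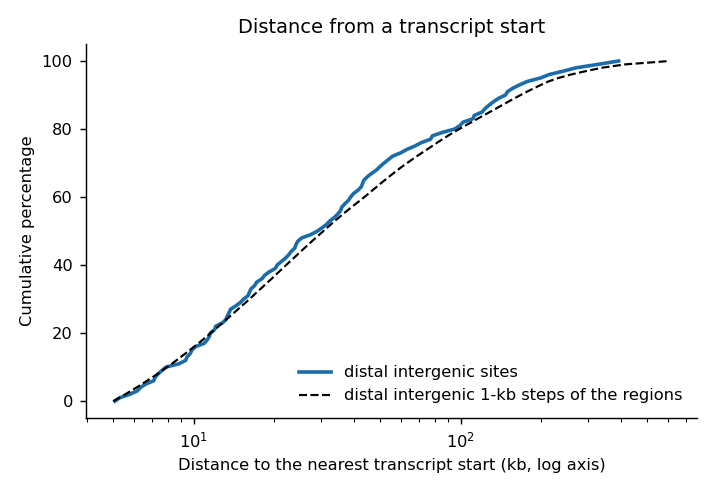
Cumulative percentage of the 328 distal intergenic sites (solid) and of all distal intergenic positions on a 1-kb grid through the same regions (dashed), against the distance to the nearest transcript start in kb on a log axis. The curves stay close together, with medians of 29.1 and 30.6 kb.

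The 10 members farthest from a start lay on 4 chromosomes. The farthest, chr14:71707439-71707458, was 390.7 kb from the start of Gfra2, a receptor for ligands of the GDNF family, and another member of that interval, chr14:71646580-71646599, was 329.8 kb from it. Both lay downstream of the gene. On the same chromosome chr14:74683396-74683415 and chr14:74770530-74770550 were 328.0 and 270.1 kb from a start, between Gm6984 and Htr2a, which encodes a serotonin receptor. On chromosome 18 the member at 81791742 was 386.1 kb from a small nucleolar RNA gene, SNORA17, between Sall3, a zinc finger gene of the spalt family, and Galr1, a galanin receptor gene, and the member at 83795968 was 271.2 kb from a U1 gene between Zfp516 and Tshz1. On chromosome 7 chr7:38030156-38030175, between the zinc finger genes Tshz3 and Zfp536, was 323.2 kb from a start, and chr7:144927820-144927839, between the glutaredoxin gene Glrx3 and Tcerg1l, was 298.5 kb from one. The last 2, chr9:60942382-60942401 and chr9:60966029-60966048, were 256.4 and 254.0 kb from a start and lay between Uaca and Gm10655. Of these 10 sites, 9 had a 20-bp end found once in the genome, and the exception at chr14:71646580 occurred at 2 places.

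Near the limit of 5000 bp, the members just inside were 5069 bp from a start of Timp2, an inhibitor of metalloproteinases (chr11:118222114-118222133), 5114 bp from the pseudogene Gm13529 (chr2:33503169-33503188) and 5179 bp from a U6 gene (chr16:92048092-92048111). Of the 78 listed sites outside genes but within 5 kb of a start, the nearest to the limit were 4906 bp from the pseudogene Gm14859 (chrX:99398826-99398845), 4846 bp from the pseudogene Gm11472 (chr2:166908384-166908403) and 4781 bp from Atr, the gene of a DNA damage kinase (chr9:95753226-95753245). Only 8 members lay under 6 kb from a start.

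The members fell into 238 gene-free intervals, each the stretch between the nearest genes of any type on either side. The interval around a member had a median length of 99.5 kb (95% interval of the median from 79.9 to 116.8 kb). Intervals under 50 kb held 98 members (29.9%), and the 13 intervals over 500 kb held 36 (11.0%). An interval had a single member in 180 cases, 2 in 37 cases, 3 in 14, 4 in 5 and 6 in 2. The 58 intervals with at least 2 members held 148 of the 328 (45.1%).

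The interval with the most members and the greatest length among equals lay between Gfra2 and a U1 gene on chromosome 14 (chr14:71379646-72530894). Its 6 members lay 58.7, 81.5, 266.9, 327.8, 912.3 and 926.9 kb from the edge of Gfra2, in 1151 kb of DNA without an annotated gene. They lay in 3 pairs, with the longest empty stretch before the last pair, whose members were 239.0 and 224.4 kb from the U1 gene. The G+C content of the surrounding 1 kb was 45.3, 33.8, 42.7, 44.1, 42.9 and 39.6%, all of it below the median of the members, which was 47.3%. Of the 6 sequences printed above, the third was found at 2 places in the genome and the fifth, which ends in a run of A, at 3.

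The other interval with 6 members lay between Uaca and Gm10655 on chromosome 9 (chr9:60728178-61218603) and was shorter, at 490.4 kb, which gave 12.2 members per Mb against 5.21 in the first. The members lay 182.5, 214.2, 237.9, 357.6, 438.4 and 449.6 kb from Uaca, so that the first 182.5 kb had none. Their 1-kb G+C content ran from 44.4 to 50.1%, and each had a 20-bp end found once in the genome. A nearby gene-free interval between Tle3, a Groucho-type corepressor, and the ribosomal protein gene Rplp1 (chr9:61266298-61761090) had another 4, all in its distal part, at 371.2, 375.6, 396.2 and 454.3 kb from Tle3. The members of both belong to the region of chromosome 9 that stood above its sequence.

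The third interval by the same order lay on chromosome 18 between a U6 gene and SNORA17, with Sall3 and Galr1 as the nearest protein-coding genes (chr18:81223630-82177807). Its 4 members lay 568.1, 829.8, 853.9 and 909.9 kb from the U6 gene, all in the second part of the 954.2 kb. The next on this chromosome, from a U1 gene to Tshz1, a teashirt zinc finger gene (chr18:83524757-84181018), had 4 members at 23.7, 146.7, 271.2 and 634.9 kb. Zfp516 and Tshz1, the nearest protein-coding genes of that interval, flanked 9 and 7 members in all, and Tshz3 on chromosome 7 flanked 8.

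The 4 other intervals with 4 members, which include those from Tle3 to Rplp1 and from the U1 gene to Tshz1, were named after their values had been seen. Another lay between Mirg and Dio3os on chromosome 12 (chr12:110987666-111513593), in the imprinted Dlk1-Dio3 domain, whose maternally expressed RNAs include Mirg and whose Dio3 gene encodes an enzyme that inactivates thyroid hormone. Its members lay 109.5 and 132.1 kb from Mirg and 67.4 and 49.0 kb from Dio3os, in 525.9 kb, with 1-kb G+C contents of 48.5, 47.9, 50.9 and 52.8%. The last lay between Tcerg1l and Mapk1ip1 on chromosome 7 (chr7:145589414-146027505), where the members were 142.0, 248.8, 285.3 and 337.2 kb from Tcerg1l and the first of them carried an octamer. In each of the 7 intervals with 4 or more members, the members were the only listed sites. The rule nearly fixes this, since any other site in a gene-free interval must lie within 5 kb of a start.

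**Figure D3:**
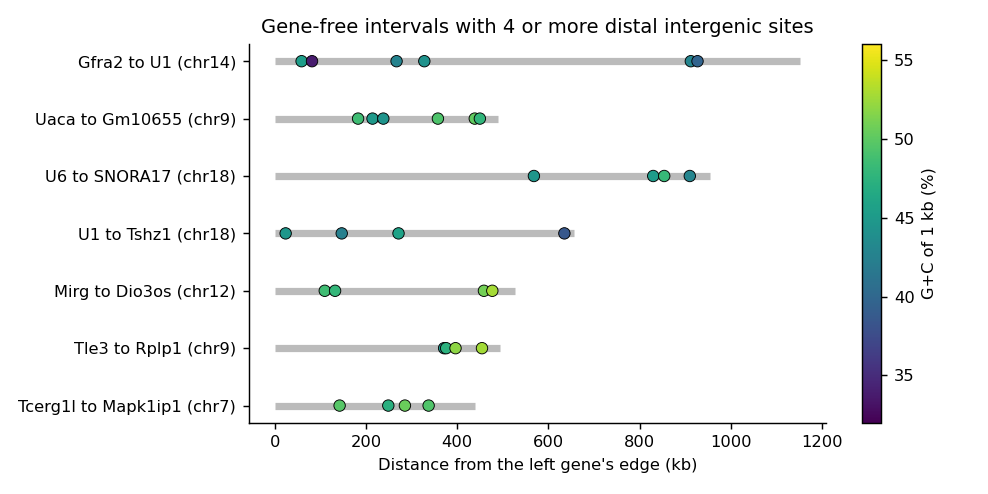
The 7 gene-free intervals with 4 or more distal intergenic sites, each drawn as a bar to scale from the edge of the left gene (0 kb) to the edge of the right gene. Points are the sites, coloured by the G+C content of the surrounding 1 kb, and they lie near the right end from Tle3 to Rplp1 and in 2 pairs from Mirg to Dio3os.

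On chromosome 17, the chromosome of Pou5f1 (ENSMUSG00000024406.9, chr17:35642982-35647721, forward strand), 13 of 57 sites were members (22.8%, Wilson interval from 13.8% to 35.2%), against 33.1% of the 952 sites on other chromosomes. The interval includes the share elsewhere. The bases of the intra-chromosomal regions that met the rule were 22.1%. As the coordinates of the bait are not given in the paper's text, distances were taken from the start of Pou5f1. Only 3 members were within 1 Mb, at 214.3, 221.7 and 275.5 kb from it. The first 2 lay in the same gene-free interval between Gm4577 and Gm20443, 15.8 and 12.1 kb from the nearest start, on the far side of Ddr1, which encodes a collagen receptor kinase. The third lay 0.81 kb past the end of 4833427F10Rik, with the early response gene Ier3 as the nearest protein-coding gene, 40.2 kb away.

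The other 10 members of chromosome 17 were between 6.09 and 37.6 Mb from Pou5f1. The member at chr17:29554774-29554793 lay 41.3 kb from the start of Fgd2, between this gene and the kinase gene Pim1, and its sequence occurred at 3 places in the genome. Members at chr17:27365315-27365334 and chr17:27182749-27182768 lay 23.9 kb upstream of Lemd2, a gene of the inner nuclear membrane, and 11.5 kb upstream of Itpr3, an IP3 receptor gene. Those at chr17:26600117-26600136 and chr17:26517276-26517295 lay on either side of Neurl1b, the first between it and Dusp1, a MAP kinase phosphatase gene, and the second 34.6 kb upstream. The member at chr17:56542596-56542615 was only 0.31 kb past the end of Kdm4b, a histone demethylase gene, and 9.26 kb from the nearest start. The member farthest to the left, chr17:8695403-8695422, lay between T, the Brachyury gene of mesoderm, 60.1 kb away, and Pde10a, 22.8 kb away, and was found at 2 places. On the far right, chr17:73008152-73008171 and chr17:73150203-73150222 shared the interval from the receptor kinase gene Alk to Ypel5, and chr17:73261442-73261461 lay 6.19 kb upstream of Lbh.

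Members were richer in G and C than the sequence of their regions. The 1 kb around a member had a median G+C content of 47.3% (95% interval of the median from 46.3% to 47.9%), with a range from 32.3% to 58.7%. The distal intergenic grid positions of the same regions had a median of 45.3%. In 33 of 38 regions with at least 3 members, the members' median was above that of the grid. Sites in gene bodies had a median of 47.7% (from 46.8% to 48.2%), whose interval overlapped that of the members. Sites near starts, with 51.0% (from 50.0% to 52.0%), lay above it. Members were lower in median G+C content than the other sites of their region in 24 of 36 regions with at least 3 of each. Over the whole list the difference between members and all other sites was -1.70 percentage points.

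**Figure D4:**
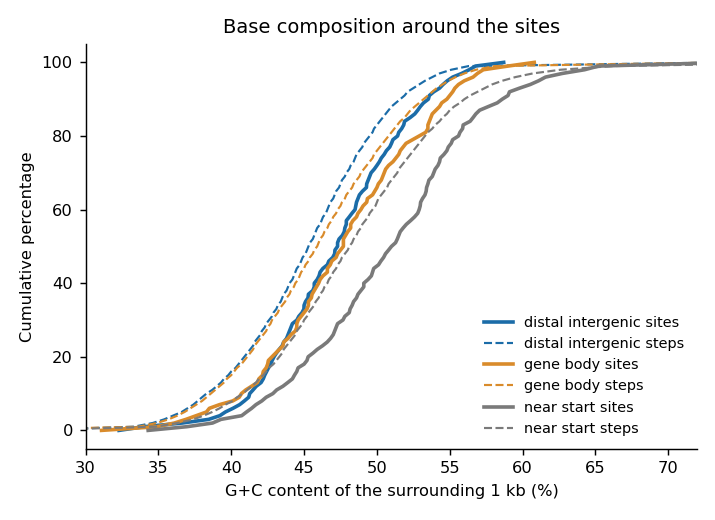
Cumulative percentage of sites (solid) and of 1-kb grid positions of the same regions (dashed) against the G+C content of the surrounding 1 kb in percent, for distal intergenic DNA, gene bodies and DNA within 5 kb of a start. In each class the sites lie to the right of the grid, with medians of 47.3% and 45.3% for distal intergenic DNA.

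The density of members rose with each step of G+C content. It was 2.44 per Mb (exact Poisson 95% interval from 1.49 to 3.76) where the 1 kb had at most 40% G+C, 5.76 (from 4.65 to 7.05) at 40 to 45%, 6.83 (from 5.68 to 8.15) at 45 to 50%, 10.1 (from 7.92 to 12.6) at 50 to 55% and 14.5 (from 8.11 to 23.9) above 55%. The lowest and the highest intervals did not overlap. Between classes at the same G+C content, the intervals overlapped in each of the 5 bins. At 45 to 50% the densities were 6.83 per Mb in distal intergenic DNA, 7.0 (from 5.80 to 8.38) in gene bodies and 6.74 (from 5.40 to 8.31) near starts. At 50 to 55% they were 10.1, 8.78 (from 7.06 to 10.8) and 10.9 (from 8.93 to 13.1), and above 55% they were 14.5, 11.6 (from 7.74 to 16.6) and 14.2 (from 11.1 to 17.8).

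**Figure D5:**
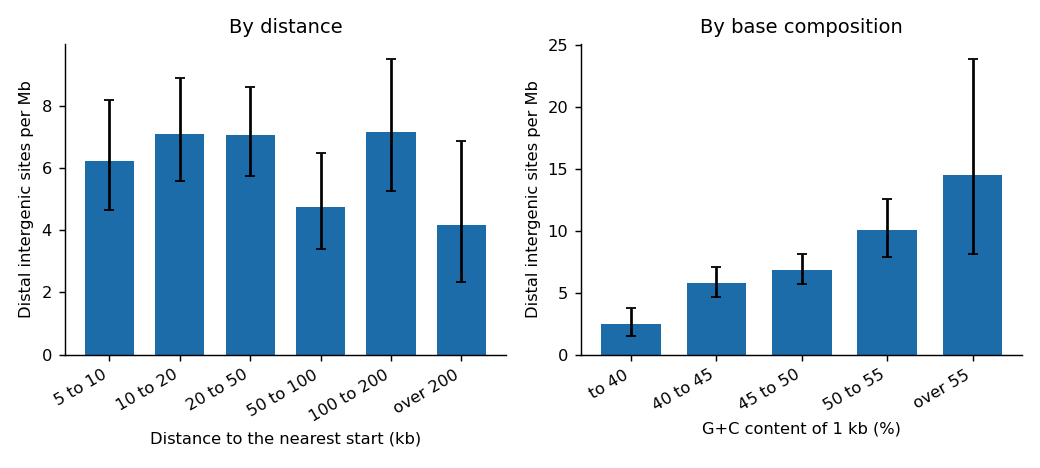
Distal intergenic sites per Mb of distal intergenic sequence in the interacting regions, by distance to the nearest transcript start in kb (left) and by G+C content of the surrounding 1 kb in percent (right). Bars are densities and error bars exact Poisson 95% intervals, which all overlap on the left, while the density on the right rises from 2.44 to 14.5 per Mb.

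The excess in G+C content was greatest close to the site. The median over 300 bp was 48.7%, against 47.3% over 1 kb, 46.4% over 10 kb and 46.0% over 100 kb. In 218 of the 328 members (66.5%, Wilson interval from 61.2% to 71.4%) the 300 bp around the site had more G+C than the 10 kb around it, with a median difference of 2.24 percentage points (95% interval of the median from 1.36 to 2.84), whereas grid positions had 51.5% and 0.20 points. Gene body sites showed 68.1% and 2.40 points, and sites near starts 57.9% and 1.04 points, so the local rise was shared by all 3 classes. PCR and sequencing can favour certain base compositions, and their part in this was not tested.

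CpG dinucleotides were few around most members. Within 300 bp the members had a median of 3 CpG dinucleotides, against 2 on the grid, and 52 members (15.9%, Wilson interval from 12.3% to 20.2%) had over 5, against 13.3% of the grid. The member with the most, 20, was at chr2:28799609-28799628, 9.42 kb from the pseudogene Gm13394. The nearest protein-coding gene was 1700101E01Rik, 11.3 kb away, and on the other side lay Barhl1, a homeobox gene of the nervous system, 27.4 kb away. This member was singled out after the values were seen. Its 300 bp, with each CpG in capitals, show that they are spread over the whole window.
chr2:28799468-28799767: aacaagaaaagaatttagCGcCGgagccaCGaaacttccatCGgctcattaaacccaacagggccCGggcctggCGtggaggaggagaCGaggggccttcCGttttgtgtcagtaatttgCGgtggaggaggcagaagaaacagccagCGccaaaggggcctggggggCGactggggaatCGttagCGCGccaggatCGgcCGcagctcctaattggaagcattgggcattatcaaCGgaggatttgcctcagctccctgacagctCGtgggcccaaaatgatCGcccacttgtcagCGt
The next had 11, at chr1:134294169-134294188, 6.32 kb upstream of Tmcc2, and at chr13:95066490-95066509, 10.7 kb upstream of Scamp1.

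Most members had a 20-bp end of which mm9 holds a single copy. At least 1 of the ends was found once, on either strand and without mismatch, in 301 of the 328 (91.8%, Wilson interval from 88.3% to 94.3%), against 76.8% of the distal intergenic grid. A grid position had a single 20-bp sequence to count, whereas a site wider than 20 bp had both its ends. The authors kept uniquely aligned tags only, so a share above that of the unfiltered grid is set by their filter and is no finding. The share was 95.4% (from 92.7% to 97.2%) for gene body sites and 94.9% (from 91.9% to 96.8%) for sites near starts, whose intervals overlapped that of the members. The other 27 members had no unique end by this exact count, although they had passed that filter, and how they did was not tested. Of these, 6 occurred at 2 places, 14 at 3 to 10 and 7 at over 10. The 3 with the most copies are printed here to show what the sequence of such sites looks like, and they were chosen after their values were seen.
chr3:28733396-28733416: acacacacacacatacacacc
chr5:39002131-39002150: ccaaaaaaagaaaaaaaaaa
chr12:112625300-112625319: ggtgggggtggggtgggggg
The first, beside Rpl22l1, occurred 737 times, the second, between Wdr1 and Zfp518b, 235 times and the third, 9.38 kb upstream of Cdc42bpb, 216 times. When members and grid were both limited to positions with a unique 20-bp sequence, a comparison added after the data had been seen, the density was 7.66 per Mb (exact Poisson interval from 6.82 to 8.58) in distal intergenic DNA and 7.47 (from 6.70 to 8.32) in gene bodies. Near starts it was 9.38 (from 8.37 to 10.5), still higher than for the members, with an interval that then overlapped theirs. The median G+C contents were then 47.4% for members and 45.7% for the grid.

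A site is the union of overlapping or neighbouring tags, so that its width shows how tags were spread. With starts counted from 0, as is usual for lists of this format but not stated for this one, exactly 20 bp, the length of a single tag, were covered by 232 members (70.7%, Wilson interval from 65.6% to 75.4%), 21 to 29 bp by 91 and 30 bp or more by 5. The same share was 70.7% in gene bodies and 66.7% near starts. The widest were chr15:77724698-77724826 with 129 bp, between Myh9, a non-muscle myosin gene, and the thioredoxin gene Txn2, chr5:38973741-38973866 with 126 bp, between Wdr1 and Zfp518b, and chr4:138117719-138117841 with 123 bp, 3.50 kb past the end of Vwa5b1. The other 2 over 30 bp were chr2:167193696-167193769 with 74 bp, between B4galt5 and Slc9a8, and chr5:125444504-125444547 with 44 bp, between Zfp664 and Fam101a. All 5 had a unique 20-bp end.

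The octamer ATGCAAAT, searched on both strands in the 300 bp around each site, was present in 4 members (1.22%, Wilson interval from 0.48% to 3.09%), in 8 of the other 681 sites (1.17%) and in 1.98% of the distal intergenic grid. The 2 windows printed above belong to members 142.0 kb upstream of Tcerg1l on chromosome 7 and 12.2 kb downstream of the start of Cited1, a transcriptional coactivator gene, on chromosome X. The composite of the Sox and octamer motifs, a run of 15 bp, was in none of the members. For this count of 0 the Wilson interval ends at 1.16%, and 0 of the other sites had the composite either. On the distal intergenic grid it was found at only 1 of 51427 positions. So rare a run would hardly be met among so few sites, and its absence cannot tell the members from the grid.

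Other motifs bound by factors of embryonic stem cells were near the level of the grid. The Sox motif CATTGT was present in 49 members (14.9%, Wilson interval from 11.5% to 19.2%) and 16.4% of the grid, the Esrrb motif TCAAGGTCA in 3 (0.91%) and 0.82% of the grid, and the Klf4 motif CCACACCC in 11 (3.35%, from 1.88% to 5.90%) and 2.72% of the grid. The Zfx core AGGCCT was in 35 (10.7%, from 7.77% to 14.5%), against 9.01% of the grid and 15.7% (from 13.2% to 18.6%) of the other sites, a pair of overlapping intervals. The CTCF core CNAGGNGGC was in 18 (5.49%, from 3.50% to 8.51%), against 3.05% of the grid and 5.29% of the other sites. The grid value lay below the members' interval for CTCF only. This motif is rich in G and C, of which the windows of members had more than the grid, and the part of base composition in the difference was not tested. A match is a run of letters and does not show binding.

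The genes next to the members were mostly protein-coding, with 451 of the 656 flanks (68.8%). Most annotated genes are of this type, 22350 of 37252. Processed transcripts made up 54 flanks, small nuclear RNAs 48, pseudogenes 33 and long intergenic RNAs 32. Both neighbours were protein-coding for 181 members. Of the neighbouring pairs, 71 (21.7%) had both starts facing the member, 93 (28.4%) had both ends facing it and 164 (50.0%) had one of each. Within 5 kb of the end of a gene lay 42 members (12.8%). The types of flanks, the pairs and the gene ends were not measured over the grid, so these shares cannot be read as particular to the members. The members had a median of 11 protein-coding genes within 500 kb (95% interval of the median from 9 to 12), close to the 12 (from 11 to 14) of gene body sites and fewer than the 20 (from 18 to 21) of sites near starts.

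None of the listed pluripotency genes was a neighbour of a member. Of 42 genes of the pluripotency network, 2 lay in an interacting region, which is 4.76% against 10.0% of all protein-coding genes, and none was the nearest protein-coding gene on either side of a member, against 1.78% of all. The 2 were Lin28a, an RNA-binding protein gene that blocks let-7 processing, 99.5 kb from the nearest member, and Utf1, a chromatin factor gene of stem cells, 416.7 kb from it, while other listed sites lay 34.1 and 8.62 kb from them. None of 16 genes of chromosome architecture, such as those of cohesin and CTCF, lay in a region. At these numbers of genes, a share like that of all protein-coding genes gives less than a single gene beside a member. The lower share of pluripotency genes in regions rests on 2 genes and was not tested. The pluripotency list holds Pou5f1 itself, and Ctcf is in both lists.

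The nearest other listed site was also a member for 186 of the 328 (56.7%, Wilson interval from 51.3% to 62.0%), and a gene body site or a site near a start for 71 each. It lay in the same gene-free interval for 150 (45.7%). Gene body sites had a nearest site of their own class in 50.71% (from 45.50% to 55.91%), an interval that overlapped that of the members. For sites near starts the share was 46.36% (from 41.06% to 51.75%). Neighbouring positions in a long gene-free interval are of the same class by the rule, and the part of gene layout in these shares was not tested. The median distance to the nearest other site was 54.0 kb (95% interval of the median from 43.9 to 62.0 kb), 59.5 kb (from 47.0 to 70.6 kb) for gene body sites and 42.0 kb (from 36.3 to 46.4 kb) for sites near starts. The interval of the members overlapped both. Within 10 kb of another site lay 40 members (12.2%), 12.3% of gene body sites and 11.5% of sites near starts.

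Of the pairs of members with middles under 1 kb apart, 3 are given here, and they were named after their values were seen. On chromosome 9 the sites chr9:66856488-66856508 and chr9:66856710-66856730, between Lactb and the tropomyosin gene Tpm1, were 222 bp apart. On chromosome 2 a pair 241 bp apart at 164902636 and 164902877 lay between Cd40 and 1700025C18Rik, and a pair 767 bp apart, at 167193696 and 167194490, included a site of 74 bp between B4galt5 and Slc9a8. Each of these sites had a unique 20-bp end. Pieces of chromatin were about 500 bp long, so that the first 2 pairs lie within the length of a single piece, and whether such a pair comes from 1 ligation or from 2 cannot be told from the list.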

How the data were processed

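Sonication-based 4C-Seq was performed on 2 replicates of E14 cells, which the deposited list does not separate. Its values, a chromosome, start and end per site in base pairs of mm9, were made by the authors, who aligned 20-bp end tags with BWA (version not given in the sources used here), merged alignments with SAMtools, kept unique pairs with one end in the bait, merged tags within 100 bp, removed sites of a single read and kept regions enriched in both replicates, with the false discovery rate set to 5%, or to 20% for chromosome 17.

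Starts were read as 0-based, since most sites are then 20 bp long, and turned into 1-based positions, and site middles were set against the NCBIM37 (mm9) sequence and its GENCODE gene models (37252 genes, 86803 transcript starts). Where a grid value is given, it was measured at every position of a 1-kb grid through the regions as for the sites, except for copy number. The rarer of the first and last 20 bp gave the copy number of a site, and the 20 bp around it that of a grid position. Both were counted without mismatch. Shares have Wilson intervals, medians order-statistic intervals and densities exact Poisson intervals (95%). The list is a single pooled sample, so no test was run. Members and lists were chosen with earlier results of these data known. Sites were named by rule: the 10 farthest, those of chromosome 17, the 5 widest, those with an octamer or beside a pluripotency gene, 3 on each side of the limit, and the 3 intervals and regions with the most members. All 42 and 16 genes of the 2 lists were in the annotation, Tfcp2l1 under an older symbol. Some items that the rule names are not reported here. Counting was tested on simulated data. Python 3.11.15, numpy 2.4.6, pandas 2.3.3, scipy 1.17.1 and matplotlib 3.10.9 were used.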

Additional observations from a re-analysis of the deposited data

How the results depend on the processing

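The share of sites in distal intergenic DNA was 36.3% with a limit of 2000 bp from a start, 27.5% with 10000 bp, 19.9% with 20000 bp and 36.9% with protein-coding genes only, and the share of bases that met the rule moved with it, to 39.7%, 29.7%, 22.3% and 39.5%. The share of bases was 35.6% without chromosome 17 and 35.0% with joining gaps of 500 kb, or 100 kb on chromosome 17. The share of bases was above the share of sites in each of these settings. It lay inside the Wilson interval of the share of sites with limits of 5000, 10000 (from 24.8% to 30.3%) and 20000 bp (from 17.6% to 22.5%). With protein-coding genes only it lay inside as well (from 33.95% to 39.9%). It lay outside with 2000 bp alone, where the interval ran from 33.4% to 39.3%. The median distance to a start was 23.3, 36.7 and 50.7 kb with limits of 2000, 10000 and 20000 bp, and 36.3 kb with protein-coding genes only. The median interval length was 122.0 kb and 180.7 kb with limits of 10000 and 20000 bp and 126.8 kb with protein-coding genes only. The median G+C content was 48.7% over 300 bp and 46.0% over 100 kb. The octamer was present around 5.49% of members in 1-kb windows and 10.7% in 2-kb windows, which are longer and so hold more matches. The smaller joining gaps split the regions, and 71 then held a member. Taking sites with a unique end alone made that share 100% by construction. The other 67 of 90 alternative values stayed within the main intervals, or within 1.5 times the main count of regions, and the difference in G+C content between members and other sites was negative in all of them. Without read counts and separate replicates, neither the strength of a contact nor its spread can be given, and gene models of a later annotation could move sites across the rule.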
